A study of Mus musculus with 384 samples.

Results

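Promoter windows of lincRNA genes are the accessible 500-bp windows whose centre lies within 1 kb of a start site of a gene that the GENCODE vM1 annotation types as lincRNA (long intergenic noncoding RNA). Of the 50000 windows listed for a mouse breast tumor, 742 met this rule. They are described in 2 sets. The 506 shared windows lay within 1 kb of both a lincRNA and a protein-coding start site, and the remaining 31.8% of members (95% exact interval 28.5 to 35.3%) are called lincRNA-only, with no protein-coding start site at that distance. The rule used positions alone, and the outermost centres inside it were 987 to 989 bp from a start site while the nearest outside it were at 1001 to 1007 bp.

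The windows came from Pi-ATAC, in which cells are fixed, stained with antibodies, transposed to cut open chromatin and sorted singly into wells. The cells came from 1 tumor of an MMTV-PyMT mouse of 3 months of age, whose transgene expresses the polyoma middle T oncogene in mammary epithelium from a viral promoter, and were stained for EpCAM (an epithelial surface protein) and CD45 (a leukocyte surface protein). All wells, on 4 plates of 96, form 1 group without an untreated or normal counterpart, and which stain a well carried was not used here. The paper reports larger shares of CD45+ and of EpCAM+ cells among the cells it analysed than among all stained cells of the tumor. The shares below thus describe the sorted cells and not the tumor as a whole. The list pools the wells and holds positions without a score or count. A window is therefore present or absent, its depth is unknown, and 1 tumor gives no replicate error. The intervals below are 95% exact (Clopper-Pearson) intervals for shares and Newcombe intervals for differences, and they cover counting error only. Each window or gene is counted as independent, although some windows overlap or share a gene. Promoter windows were listed for 5 of 6 leukocyte marker genes (Coro1a, Laptm5, Ikzf1, Runx3 and Fli1) but not Ptprc, and for 4 of 7 luminal epithelial ones (Cdh1, Elf3, Muc1 and Cldn4) but not Epcam, Krt8 or Krt18, beside 43.5% of all coding genes. So few genes do not show which cells gave a window, and fewer cells of a kind cannot be told apart from less open chromatin per cell.

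lincRNA genes are transcribed by RNA polymerase II from promoters of their own, and their RNAs are capped and usually spliced but not translated. Some act on the chromosome that makes them, as Xist does in silencing an X chromosome. Others are mainly known as carriers of small RNAs in their introns. Many begin close to a coding gene on the opposite strand and are transcribed away from it. At mammalian promoters, CpG-rich sequence is common at broadly used start sites, and CpG-poor sequence at many tissue-restricted ones.

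4 windows show the range of CpG content among lincRNA-only promoters. The central 300 bases of each are printed from the mm9 genome in the direction of the lincRNA gene, with every CG dinucleotide in capitals. Gm9530 (chr1:156930434-156930733, minus strand) is from the CpG-rich end. Jpx, annotated as Enox (chrX:100688711-100689010, plus strand), and Xist (chrX:100678426-100678725, minus strand) are the start-site windows of an activator of Xist and of Xist itself. Gm16978 (chr17:75016271-75016570, minus strand) had no CG in its whole window.
Gm9530: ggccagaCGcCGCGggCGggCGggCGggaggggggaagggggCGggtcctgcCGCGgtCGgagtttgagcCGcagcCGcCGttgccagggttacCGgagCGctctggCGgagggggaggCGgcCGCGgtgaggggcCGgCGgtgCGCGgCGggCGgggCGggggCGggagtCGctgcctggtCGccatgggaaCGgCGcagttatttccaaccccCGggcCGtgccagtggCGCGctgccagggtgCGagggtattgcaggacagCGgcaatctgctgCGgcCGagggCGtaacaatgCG
Jpx: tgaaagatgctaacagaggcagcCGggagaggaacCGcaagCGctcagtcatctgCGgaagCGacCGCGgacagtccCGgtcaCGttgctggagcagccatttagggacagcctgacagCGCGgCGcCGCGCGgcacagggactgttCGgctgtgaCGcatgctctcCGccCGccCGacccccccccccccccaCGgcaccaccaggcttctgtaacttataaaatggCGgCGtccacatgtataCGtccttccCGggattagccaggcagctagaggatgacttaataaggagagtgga
Xist: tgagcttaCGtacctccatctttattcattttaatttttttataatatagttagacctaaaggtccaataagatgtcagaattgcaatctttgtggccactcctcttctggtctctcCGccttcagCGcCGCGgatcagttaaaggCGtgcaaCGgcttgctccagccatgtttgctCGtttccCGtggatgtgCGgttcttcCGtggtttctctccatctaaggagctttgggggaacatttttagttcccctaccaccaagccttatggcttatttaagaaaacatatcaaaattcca
Gm16978: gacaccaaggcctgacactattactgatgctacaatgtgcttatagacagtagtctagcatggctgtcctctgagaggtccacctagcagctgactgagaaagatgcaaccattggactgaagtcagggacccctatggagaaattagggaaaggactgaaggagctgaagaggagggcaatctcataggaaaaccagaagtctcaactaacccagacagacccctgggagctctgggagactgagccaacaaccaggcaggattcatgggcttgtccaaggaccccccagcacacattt
These stretches held 41, 25, 11 and 0 CG dinucleotides in the order printed. None of the 4 lay within 1 kb of a protein-coding start site.

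A further pair shows a TATA word directly before the start site in snoRNA host genes, whose introns carry small nucleolar RNAs. The word TATAAA is in capitals and began 37 bases before the start of Snhg5 (chr9:88417589-88417888, minus strand) and 30 bases before that of Snhg7 (chr2:26495629-26495928, minus strand).
Snhg5: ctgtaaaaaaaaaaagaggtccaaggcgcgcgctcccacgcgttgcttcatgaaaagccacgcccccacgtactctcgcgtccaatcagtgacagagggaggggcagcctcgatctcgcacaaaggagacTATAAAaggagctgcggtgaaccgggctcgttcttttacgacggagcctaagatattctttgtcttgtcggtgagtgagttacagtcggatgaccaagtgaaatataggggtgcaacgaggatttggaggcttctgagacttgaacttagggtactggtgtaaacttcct
Snhg7: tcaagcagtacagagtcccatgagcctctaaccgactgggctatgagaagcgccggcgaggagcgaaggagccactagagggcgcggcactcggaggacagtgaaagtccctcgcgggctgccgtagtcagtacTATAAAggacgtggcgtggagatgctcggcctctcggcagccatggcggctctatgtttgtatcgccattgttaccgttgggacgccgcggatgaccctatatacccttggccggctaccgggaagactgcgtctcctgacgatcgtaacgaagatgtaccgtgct
Both windows were lincRNA-only and met the CpG-rich criterion used below.

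The last set shows words of transcription factor families at start-site windows, with each word in capitals. 2310001H17Rik (chr6:129187825-129188124, minus strand), which lies near the leukocyte activation gene Cd69, held a PU.1 word (GAGGAAGT). Gm16988 (chr10:37057123-37057422, plus strand) held an AP-1 word (TGACTCA) at 2 places. Gas5, a snoRNA host and the one shared window printed here (chr1:162965081-162965380, plus strand), held an Sp and KLF word (GGGCGGGG) and a CRE word (TGACGTCA).
2310001H17Rik: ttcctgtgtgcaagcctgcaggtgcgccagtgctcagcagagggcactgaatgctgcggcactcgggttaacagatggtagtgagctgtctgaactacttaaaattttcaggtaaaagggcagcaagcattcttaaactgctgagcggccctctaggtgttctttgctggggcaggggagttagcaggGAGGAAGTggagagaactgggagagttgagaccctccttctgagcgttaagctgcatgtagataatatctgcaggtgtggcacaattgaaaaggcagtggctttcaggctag
Gm16988: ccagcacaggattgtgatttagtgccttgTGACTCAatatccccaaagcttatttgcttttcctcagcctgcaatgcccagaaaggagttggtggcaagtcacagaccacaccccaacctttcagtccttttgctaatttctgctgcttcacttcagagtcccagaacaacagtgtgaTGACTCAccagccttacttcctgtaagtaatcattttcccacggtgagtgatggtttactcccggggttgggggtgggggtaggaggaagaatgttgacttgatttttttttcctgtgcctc
Gas5: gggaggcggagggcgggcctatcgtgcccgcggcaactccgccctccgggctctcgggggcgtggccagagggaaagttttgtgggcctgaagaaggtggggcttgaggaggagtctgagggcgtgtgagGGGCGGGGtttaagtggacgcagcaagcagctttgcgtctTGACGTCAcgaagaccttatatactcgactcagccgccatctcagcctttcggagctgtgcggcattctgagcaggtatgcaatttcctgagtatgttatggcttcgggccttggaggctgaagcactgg
Such matches describe the letters in these windows and were not tested as binding sites.

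The first question was how many lincRNA genes had an accessible promoter in the pooled cells sorted from this tumor. A window centre fell 1 kb or less from a start site in 537 of 1273 lincRNA genes (42.2%, interval 39.5 to 45%), against 9718 of 22350 protein-coding genes (43.5%, interval 42.8 to 44.1%). The difference was -1.3 percentage points (interval -4.06 to 1.51), and over genes of all types the share was 30.0%. A window at any transcript start counted, and the number of annotated starts per gene was not matched between gene types. With the gene's 5′ end alone the lincRNA share was 40.8%, and the coding share was not recomputed in this way. Of the lincRNA genes, 57.8% had no window, 29.4% had 1, 9.66% had 2 and 3.14% had 3 or more.

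The share differed with the distance to the nearest coding start site. Among lincRNA genes with a coding start site within 1 kb, 370 of 629 had a window (58.8%, interval 54.9 to 62.7%), against 25.9% of 644 lincRNA genes farther away (interval 22.6 to 29.5%), a difference of 32.9 points (interval 27.6 to 37.9). The share was 63.4% at distances under 250 bp and 62.5% from 250 to 500 bp, and 37.5% from 500 to 1000 bp. It was 19.6% from 5 to 10 kb and 27.7% beyond 50 kb, and the intervals of these last 2 classes overlap. Windows near both starts count for both genes, so the near class partly measures the coding neighbour.

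**Figure D1:**
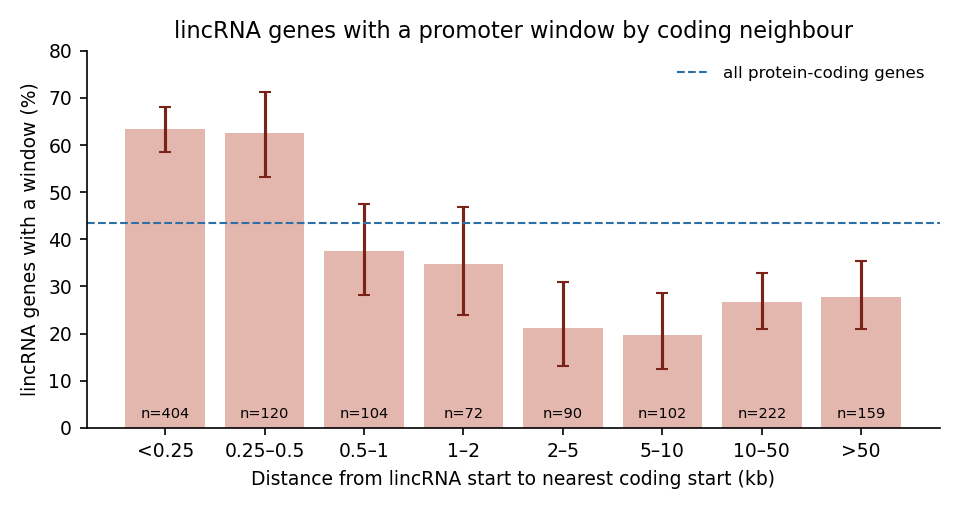
Share of lincRNA genes that had a promoter window (vertical axis, percent) by distance to the nearest protein-coding start site (horizontal axis, kb). Bars are shares, whiskers 95% exact intervals, n the number of genes, and the dashed line the share of all protein-coding genes, 43.5%. The 2 classes under 500 bp stand above the line and all classes from 2 kb on stand below it.

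Protein-coding genes showed a gap from their side as well, and windows near both starts count here too. A window was present at 421 of 631 coding genes with a lincRNA start site within 1 kb (66.7%, interval 62.9 to 70.4%), against 9297 of 21719 other coding genes (42.8%, interval 42.1 to 43.5%).

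CpG content at the gene's 5′ end moved with the share. Genes were put in 5 classes by the number of CpG dinucleotides in the 500 bp around the 5′ end, with the same limits for both gene types. In the class of 0 to 5 CpG, 7.54% of lincRNA genes and 8.09% of 4806 coding genes had a window. In the class of 15 to 31 CpG the shares were 50.8% of lincRNA genes and 50.5% of 4319 coding genes, a difference of 0.281 points (interval -5.29 to 5.83). At 47 or more CpG they were 61.8% of lincRNA genes and 69.9% of 4362 coding genes, a difference of -8.13 points (interval -15.8 to -0.93). For lincRNA genes over 1 kb from a coding start, the share in this last class was 51.6%, from 16 of 31 genes, and its difference from the coding share was -18.3 points (interval -35.2 to -1.86). The intervals of the difference included 0 in the other 4 classes, both for all lincRNA genes and for those over 1 kb from a coding start. None was adjusted for the number of classes. Within CpG classes the gap between lincRNA genes within 1 kb of a coding start and those farther away was smaller than the 32.9 points over all. The shares were 41% near and 19% far at 6 to 14 CpG, 55.7% near and 43.8% far at 15 to 31, 69.1% near and 57.1% far at 32 to 46, and 64.2% near and 51.6% far at 47 or more. The intervals of near and far genes overlap in the last 3 of these classes. No interval of the difference was computed here, and overlap alone does not show that the gap is absent. In the class of 0 to 5 CpG, 1 of 16 near genes had a window (6.25%), against 7.65% of far ones. Coding genes with a lincRNA start within 1 kb were split in the same way. A window was present at 18.8% of them at 0 to 5 CpG (3 of 16), against 8.09% of all coding genes. The shares were 49.2 and 21.6% at 6 to 14 CpG, and 63.3 and 50.5% at 15 to 31. They were 69.5 and 69.1% at 32 to 46, and 75 and 69.9% at 47 or more.

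**Figure D2:**
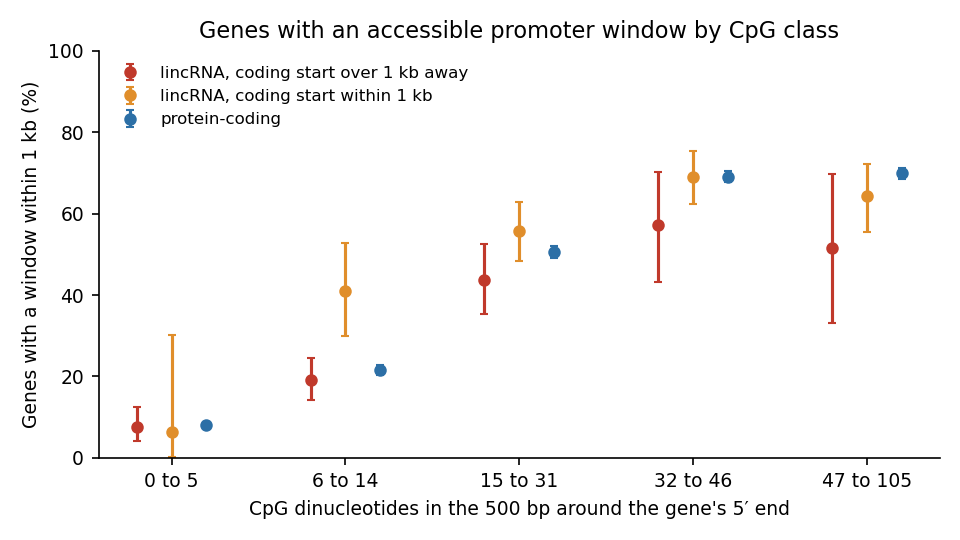
Share of genes with a window within 1 kb (vertical axis, percent) by the number of CpG dinucleotides in the 500 bp around the 5′ end (horizontal axis, 5 classes). Red points are lincRNA genes over 1 kb from a coding start, orange points those within 1 kb of one, blue points protein-coding genes, and whiskers 95% exact intervals. All 3 groups are under 10% in the lowest class and over 50% in the 2 highest.

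Other properties of the lincRNA genes also differed between those with and without a window. The median number of CpG dinucleotides at the 5′ end was 32 (quartiles 20 and 43) in the 537 genes with a window and 12 (quartiles 6 and 27) in the 736 without. Median gene length was 9010 bp with a window and 7348 bp without. Both sets had a median of 3 exons in the transcript with most exons. A window was present at 49.3% of the genes with 5 or more exons, 46.3% of the 497 with 3 or 4, and 35.5% of the 547 with 2. By annotated transcripts, the share was 37.4% of the 906 genes with 1, 53.5% with 2 or 3, and 55.4% with 4 or more. Genes with more transcripts can have more start sites at which a window counts, and the exon shares were not adjusted for this.

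The lincRNA label was checked against the later RefSeq gene table, which matched 745 of the 1273 genes. RefSeq types 689 of them as lncRNA, and 52.5% of these had a window (interval 48.7 to 56.3%), against 150 of 528 genes without a match (28.4%, interval 24.6 to 32.5%). The gap was also present away from coding genes, at 37.1% of RefSeq lncRNA genes and 15.7% of unmatched genes over 1 kb from a coding start. RefSeq types 27 of the genes as protein-coding, among them Ppp1r3e and Bbip1, and 18 of the 742 member windows (2.43%) lay nearest to one of these. The other 29 matched genes have a RefSeq type that is neither lncRNA nor protein-coding, and a further 18 windows (2.43%) lay nearest to one of them. RefSeq does not give the lincRNA label for the windows of either kind. Another 200 windows (27%) were nearest to a gene that was not matched.

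Shared windows mostly sat at divergent gene pairs. The nearest lincRNA and coding start sites stood head to head, on opposite strands and pointing apart, in 70.4% of the 506 shared windows (interval 66.2 to 74.3%). In 29.2% the strands were opposite and the 5′ ends overlapped, and in 2 both genes ran on 1 strand. The arrangement of near pairs without a window is not given here, so these shares do not set pairs with a window apart from others. In shared windows the 2 start sites were 222.5 bp apart at the median, with an upper quartile of 453 bp. The centre was closer to the lincRNA start in 43.1% of shared windows (interval 38.7 to 47.5%). Within head-to-head windows it fell between the starts in 47.2%, on the lincRNA gene's side in 24.4% and on the coding gene's side in 28.4%.

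Centres of lincRNA windows were spread more widely around the start site than those of coding windows. A centre lay within 250 bp of the nearest lincRNA start in 50.8% of lincRNA-only windows (interval 44.3 to 57.4%) and in 56.7% of shared windows (interval 52.3 to 61.1%), against 65.6% of 11990 coding-only windows (interval 64.7 to 66.4%). Measured from the coding start instead, 68.2% of the shared windows were within 250 bp. Relative to the start, with negative values upstream, the median centre was at -35 bp in lincRNA-only windows, -50 bp in shared windows and -16 bp in coding-only windows, with 56.8%, 58.9% and 54.5% of centres upstream. Each centre was measured to the nearest of all annotated starts, and the number of starts per gene was not matched between gene types. With the gene's 5′ end alone, 49% of lincRNA-only and 55.1% of shared windows were within 250 bp. The coding-only share was not recomputed in this way. How well each start site is annotated was not tested.

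**Figure D3:**
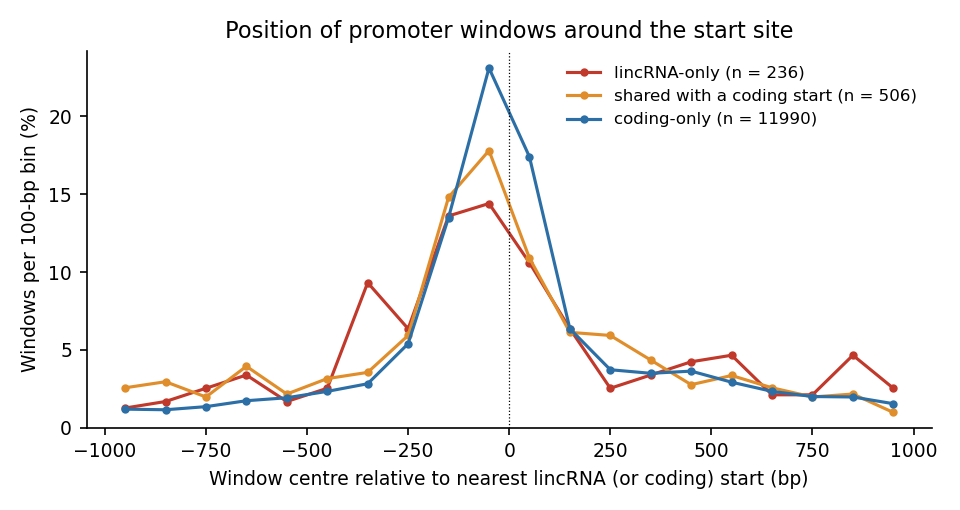
Window centres relative to the nearest start site in the direction of transcription (horizontal axis, bp), as the percent of windows per 100-bp bin (vertical axis). Red is lincRNA-only and orange shared (n = 506), both from the lincRNA start, and blue is coding-only (n = 11990), from the coding start. All 3 curves peak just before the start, and the coding-only curve is the tallest.

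lincRNA-only windows were intermediate in CpG content between coding promoters and windows away from start sites. The latter, called distant below, lie over 1 kb from any annotated start and can lie inside genes. They held a median of 18.5 CpG dinucleotides (quartiles 9.75 and 31), against 32 (17 and 43) in coding-only windows and 6 (3 and 9) in the 36690 windows away from any start site. Shared windows held 36 (27 and 47), close to the 37 (27 and 46) of the 1181 coding-only windows that lie at 2 divergent coding starts. A window is called CpG-rich here when its GC content is over 50% and its observed over expected CpG is over 0.6. That was so for 89 lincRNA-only windows (37.7%, interval 31.5 to 44.2%) and 399 shared windows (78.9%, interval 75 to 82.3%), against 63.2% of coding-only, 81.7% of divergent coding and 2.1% of distant windows, and 17.8% of all windows. The difference between lincRNA-only and coding-only windows was -25.5 points (interval -31.5 to -19.1), and that between lincRNA-only and distant ones was 35.6 points (interval 29.7 to 41.9). The difference between shared and divergent coding windows was -2.86 points (interval -7.17 to 1.2).

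**Figure D4:**
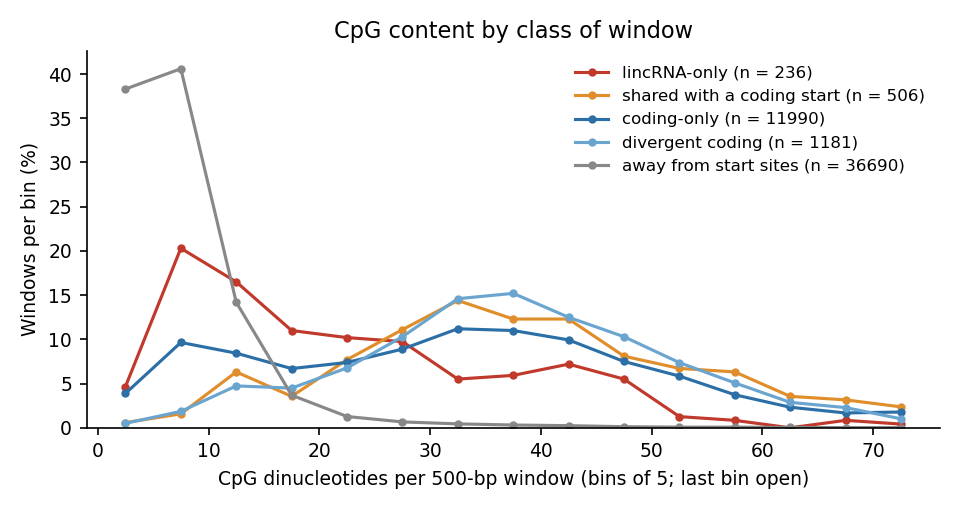
Number of CpG dinucleotides per 500-bp window (horizontal axis, bins of 5, the last one open) as the percent of windows in each class (vertical axis). The lincRNA-only curve peaks at 5 to 9 CpG and keeps a long right arm, the shared, coding-only and divergent coding curves peak at 30 to 39, and windows away from start sites lie mostly under 15.

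At the CpG-rich end of the lincRNA-only set were Ppp1r3e (70 CpG), 9430091E24Rik (69), Gm9530 (67), 1810059C17Rik (56) and the upstream start of Dleu2 (55), a host of microRNAs. RefSeq types Ppp1r3e as protein-coding. At the CpG-poor end were Gm16978 (0), a window of 2310001H17Rik (1), and Gm17211, Gm16988 and Gm17591 (3 each). The range thus runs from island promoters to windows with hardly any CpG, and 19 lincRNA-only windows (8.05%) held 5 or fewer.

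Short words of transcription factor families were counted on both strands of each window, 17 in all. AP-1 words (TGACTCA or TGAGTCA, bound by Fos and Jun dimers) were in 29 lincRNA-only windows (12.3%, interval 8.39 to 17.2%) and 27 shared windows (5.34%, interval 3.55 to 7.67%), against 7.56% of coding-only and 15.6% of distant windows, and 13.5% of all windows. The lincRNA-only share was 4.72 points above the coding-only one (interval 1.1 to 9.55). Among CpG-poor windows it was 16.3% of lincRNA-only windows, against 12.2% of coding-only windows (difference 4.14, interval -1.06 to 11) and 15.8% of distant ones (difference 0.514, interval -4.6 to 7.34). RUNX words (TGTGGTT) were in 7.63% of lincRNA-only windows, 7.11% of coding-only and 13.2% of distant ones, and 11.6% of all windows.

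Words common at coding promoters were rarer in lincRNA-only windows. The Ets word (CCGGAAG) was in 11.9% of lincRNA-only and 20.4% of shared windows, against 18.7% of coding-only and 3.32% of distant windows (7.28% of all). The Sp and KLF word was in 19.1% of lincRNA-only and 41.3% of shared windows, against 33.3% of coding-only and 3.8% of distant windows (11.4% of all). lincRNA-only windows were thus below coding-only windows for both, with differences of -6.88 points (interval -10.5 to -2.09) for Ets and -14.2 points (interval -18.8 to -8.66) for Sp and KLF. Among CpG-rich windows the differences were -9.19 points for Ets (interval -15.4 to -0.184) and -9.32 points for Sp and KLF (interval -18.5 to 1.08). Among CpG-poor windows they were 1.4 points for Ets (interval -2.46 to 7.28) and -5.07 points for Sp and KLF (interval -8.98 to 0.848), so that 3 of these 4 intervals included 0. Of the 17 words, 8 had an interval between lincRNA-only and coding-only windows that left out 0 over all windows, and 3 among CpG-rich ones (Ets, TATA and the E-box). The PU.1 word, which overlaps the Ets core in GGAAG, went the other way, at 7.63% of lincRNA-only windows, against 4.14% of coding-only windows (difference 3.49, interval 0.717 to 7.61) and 4.96% of all. The difference was 1.24 points among CpG-rich windows (interval -1.53 to 7.75) and 3.87 among CpG-poor ones (interval 0.0396 to 9.74). Of the 18 lincRNA-only windows with the word, 3 were at the gene 2310001H17Rik, and the intervals count each window separately.

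TATA words (TATAAA) set CpG-rich lincRNA-only windows apart from CpG-rich coding ones. They were in 17 of 89 CpG-rich lincRNA-only windows (19.1%, interval 11.5 to 28.8%), against 6.55% of CpG-rich coding-only windows, a difference of 12.5 points (interval 5.7 to 21.9). The word was in 6.91% of all CpG-rich windows, 7.52% of CpG-rich shared and 8.57% of CpG-rich distant ones. Among CpG-poor windows it was in 19% of lincRNA-only and 14.5% of coding-only ones (difference 4.55, interval -1.08 to 11.7). Without the split by CpG the share was 19.1% of lincRNA-only and 19.3% of all windows. It was 22.7% in distant ones, which are richer in A and T. Placed on the sense strand 20 to 40 bases before the gene's 5′ end, where a TATA box works, the word was found in 6 of 537 lincRNA genes with a window (1.12%, interval 0.411 to 2.42%) and 91 of 9718 coding genes with a window (0.936%, interval 0.755 to 1.15%). The 6 genes were Snhg5, Snhg7, Dleu2, 1700016P03Rik (the host of Mir212 and Mir132), Gm17531 and Gm14636, and all of them were over 1 kb from a coding start, where they made up 3.59% of the genes with a window (interval 1.33 to 7.66%). Among genes without a window the share was 0.543% of lincRNA genes and 3.49% of coding genes. The coding genes were not split by distance to another start. The E-box (CACGTG, which shares ACGTG with the HIF word TACGTG) was in 23.6% of CpG-rich lincRNA-only windows. It was in 15.2% of CpG-rich coding-only windows (difference 8.44, interval 0.786 to 18.3) and 15.1% of all CpG-rich windows. Without the split by CpG it was in 16.1% of lincRNA-only, 13.3% of coding-only and 9.43% of all windows. The lincRNA-only minus coding-only difference was then 2.85 points (interval -1.34 to 8.11). Among CpG-poor windows it was 1.58 points (interval -2.74 to 7.81).

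Head-to-head shared windows were set against divergent coding windows, which lie at starts of 2 coding genes pointing apart. CpG-rich windows made up 80.9% of head-to-head shared and 81.7% of divergent coding windows, a difference of -0.812 points (interval -5.69 to 3.59). Of the 17 words, 12 had an interval of the difference that included 0, AP-1, RUNX, NFY and the E-box among them, and 5 did not. The Ets word was in 21.1% of head-to-head shared windows (interval 16.9 to 25.7%), against 30.4% of the 1181 divergent coding windows (interval 27.8 to 33.1%), a difference of -9.33 points (interval -14.1 to -4.13). Among CpG-rich windows the difference was -12.1 points (interval -17.5 to -6.14). The YY1 word (AAGATGGC) was in 5.34% of head-to-head shared windows, against 9.23% of divergent coding windows, a difference of -3.89 points (interval -6.5 to -0.664). For the Sp and KLF word the difference was 6.48 points (interval 0.724 to 12.3), with 43% of head-to-head shared and 36.5% of divergent coding windows. The STAT word (TTCCNGGAA) was in 1 head-to-head shared window (0.281%), against 2.88% of divergent coding windows, a difference of -2.6 points (interval -3.74 to -1.07). The HIF word was in 11.2% of head-to-head shared and 7.87% of divergent coding windows, a difference of 3.36 points (interval 0.033 to 7.32). No interval was adjusted for the 17 words, and which of these intervals would clear such an adjustment was not tested.

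**Figure D5:**
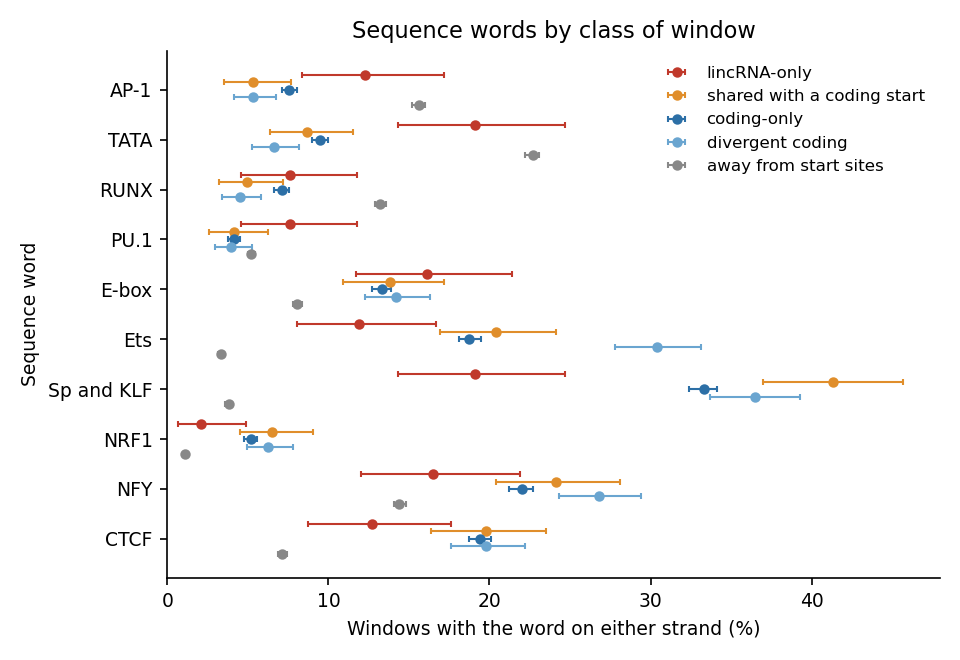
Percent of windows with each word on either strand (horizontal axis) for 10 of the 17 words (vertical axis), with 95% exact intervals. In each row the classes run from lincRNA-only (red) over shared, coding-only and divergent coding to windows away from start sites (grey). For AP-1 and TATA the red point lies between the blue and grey ones, and for Ets and for Sp and KLF it lies between the grey and blue ones.

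Several summits in 1 called peak were marked for 27 lincRNA-only windows (11.4%, interval 7.68 to 16.2%) and 91 shared windows (18%, interval 14.7 to 21.6%), against 11.6% of coding-only, 23.3% of divergent coding and 0.859% of distant windows. Another window lay within 50 kb of 95.3% of lincRNA-only and 94.1% of shared windows, against 94.2% of coding-only windows and 86.1% of distant ones. The median number of such neighbours was 5 in the lincRNA-only set, 4 in the shared and coding-only sets and 3 in the distant one. The nearest coding start was 18380 bp from a lincRNA-only centre at the median (quartiles 5810 and 51043).

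Of 75 lincRNA genes listed by known role, 36 symbols were matched to genes of type lincRNA, 37 genes in all, and 22 of these had a window (59.5%, interval 42.1 to 75.2%), beside 42.2% of all lincRNA genes. Malat1, Neat1 and H19 are typed as processed transcripts in this annotation and so are no members. The lists are short and were chosen with earlier results known, so their counts are descriptions.

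All 5 genes of the nuclear organisation and X inactivation list had windows. The Xist window was centred 20 bp before the start and held 18 CpG. Its antisense partner Tsix, which represses Xist, had 1 window 71 bp before its start. Jpx had windows 34 and 697 bp before its start, with 41 and 6 CpG. Ftx, annotated as B230206F22Rik, a further noncoding gene of the X inactivation centre, had 5 windows, with 20 to 36 CpG. Firre (6720401G13Rik), which helps to anchor the inactive X chromosome, had 1 window within 1 kb and 18 within 50 kb. No coding start lay within 1 kb of any of these windows. Accessible promoters of both Xist and Tsix, which act against each other on a chromosome, stand in this list, but it does not say whether in the same cells.

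The X chromosome also had a high share of lincRNA genes with a window, 24 of 41 (58.5%, interval 42.1 to 73.7%), against 37.4% of 932 X-linked coding genes (interval 34.3 to 40.6%). The difference was 21.1 points (interval 5.6 to 35.1). On chromosomes 3, 4 and 8 the lincRNA share was lower than the coding share, with differences of -14.3, -14.4 and -16.3 points and intervals under 0, and on the other 16 chromosomes the interval included 0. The shares ran from 29.2% on chromosome 3 to 58.5% on X. Chromosomes 7, 8, 9 and X together held 24.8% of the members, against 32.4% of all windows. They were set apart because earlier work on this list found that more of their called peaks had been kept. The shares per chromosome were not adjusted for this.

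Some lincRNA genes carry small RNAs inside them. Of 20 lincRNA genes with an annotated snoRNA inside them on the same strand, 15 had a window (75%, interval 50.9 to 91.3%), against 509 of 1223 lincRNA genes with no such small RNA (41.6%, interval 38.8 to 44.4%), a difference of 33.4 points (interval 11.3 to 47.5). These sets were not matched for CpG content at the 5′ end. The 9 snoRNA hosts of the role list held 24 to 45 CpG there. Over all lincRNA genes the share with a window was 50.8% at 15 to 31 CpG and 66.5% at 32 to 46. The hosts with windows included Gas5, Snhg1, Snhg5, Snhg7, Snhg15 (annotated as Gm11974), Snhg17 (9430008C03Rik) and Snhg18 (Snord123). Snhg5 and Snhg15 had 2 windows each. Snhg12 had none within 1 kb but 6 within 50 kb. Gas5 shared its window with Zbtb37, and Snhg1 with Slc3a2, an amino acid transporter subunit.

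Of 31 lincRNA genes with an annotated miRNA inside, 13 had a window (41.9%, interval 24.5 to 60.9%), 0.317 points from the share of genes without small RNAs (interval -15.5 to 17.8). The snoRNA and miRNA hosts were not tested against each other, their intervals overlap, and 1 gene, Rian, is in both sets. A330023F24Rik, which carries Mir29b-2 and Mir29c, had 3 windows, as did Dleu2. Ftx, which carries Mir421 and Mir374, had 5. C130071C03Rik (Mir9-2) and D030055H07Rik (Mir135a-1) had 1 each. The gene annotated as Mir155 and the Mir205 host 4631405K08Rik had none within 1 kb.

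None of the 5 imprinted genes (Meg3, Rian, Mirg, Airn and Nespas) and none of the 6 Hox and developmental genes (Hottip, Rmst, Sox2ot, Six3os1, Fendrr and Lncenc1) had a window within 1 kb. Counts of 0 of 5 and 0 of 6 allow shares of up to 52.2% and 45.9% (upper exact limits), and both ranges include the 42.2% of all lincRNA genes. The wider surroundings were not empty. Airn, which silences Igf2r on one allele, had 11 windows within 50 kb, and Fendrr, next to Foxf1a, had 14, while Rmst had 0. The 5′ ends of these genes held 0 (Rian) to 53 (Fendrr) CpG, with 38 at Six3os1, 28 at Nespas and 19 or fewer at each of the others.

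In the growth, p53 and cancer list 5 of 6 genes had a window (interval 35.9 to 99.6%, which includes the 42.2% of all lincRNA genes). Pvt1, the neighbour of Myc, had 1 window centred 525 bp inside the gene, 51164 bp from the Myc start. Trp53cor1 (Gm16197), a p53 target beside Cdkn1a, had 1 window 63 bp before its start. Tug1 had 1 window that it shared with Morc2a, and Oip5os1 (1700020I14Rik, known as Cyrano) had 1 with 42 CpG. Miat had none within 1 kb. The fifth was Epb41l4aos (2410004N09Rik).

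The single matched gene of the immune list, Morrbid (annotated as Gm14005), a regulator of myeloid cell lifespan, had 2 windows within 1 kb and 11 within 50 kb. Both windows were CpG-poor, with 11 and 7 CpG. Its nearest coding start, that of Gm355, was 161860 bp away.

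The gene with most windows within 1 kb was 2310001H17Rik, with 6. Its nearest coding start was that of Cd69, 37387 bp away, and its 6 windows held 1 to 31 CpG. PU.1 words were in 3 of them and an AP-1 word in 1. Next came Ftx with 5, and then 2500002B13Rik (beside Sap30), Ppp4r1l-ps (beside Rab22a), 1810019D21Rik (beside Esrp2, an epithelial splicing factor), 5031434O11Rik (beside Setd7), 1700023H06Rik (beside Arrdc3) and Gm16283 (beside Dtwd2) with 4 each. 5830416P10Rik, listed by RefSeq as Mirt1, and 4933433G15Rik (beside Mapk6) had 3. These last 2 were taken from 32 genes with 3 windows by the number of windows within 50 kb. Among these 10, 7 had a coding start within 1 kb.

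Counting windows within 50 kb brought out other neighbourhoods. Gm16983, near Irf2bp2, had 27 and none within 1 kb. The pair of opposite genes that RefSeq joins as Mirt1, 5830416P10Rik and 4833407H14Rik, had 26 and 23 windows in their surroundings and 5 lincRNA-only windows at their starts, all CpG-poor with 3 to 11 CpG. Gm17589 and Gm9917 had 22 each. Gm17589 starts 9275 bp from Fosb, a subunit of AP-1, and Gm9917 starts 702 bp from the hyaluronidase gene Hyal2. 4930500F10Rik (beside Alas1, the first enzyme of heme synthesis), 4933433G15Rik and Gm4262 had 20, and Gm7628 (near Plxnb1) and Gm9530 (near the immediate early gene Ier5) had 19.

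Among shared windows, the coding partner was in the AP-1, leukocyte, luminal or hypoxia lists in 5 windows at 3 gene pairs. Gm11999 shared a window with Ikzf1, a lymphoid transcription factor, whose start was 69 bp from the centre while that of Gm11999 was 976 bp away. BC006965 shared 2 windows with Sox9, a progenitor and luminal transcription factor, and both held an AP-1 word. Gm2895 shared 2 windows with Ndrg1, a hypoxia-responsive gene, with 36 and 41 CpG. No HIF word was in either of the Ndrg1 windows, which says only that these letters are not in them.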

How the data were processed

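The deposited file holds positions, with 1 list of windows for all wells. From the study's methods and the submitters' processing notes, the authors used Bowtie2 2.1.0 for alignment to mm9 and Picard 1.79 for duplicate removal. They aggregated the single cells, called summits at q 0.05 with MACS2, of a version not given in the sources used here, widened each summit to 500 bp and kept the 50000 windows of lowest q. No score or count is in the list, so neither depth nor a stricter threshold could be examined.

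Here each window was assigned by its centre to start sites of all GENCODE vM1 transcripts on chromosomes 1 to 19 and X. Sequence was read from the NCBIM37 (mm9) genome, and positions count from 1. RefSeq (GRCm38.p6) gave names and types alone. Python 3.11.15, numpy 2.4.6, scipy 1.17.1, statsmodels 0.14.6 and pysam 0.24.0 were used, and the class rule and word search were tested on simulated data. With 1 pooled list no test between samples was possible. Named genes were those of 7 role lists, the 10 genes with most windows within 1 kb and within 50 kb, windows with a listed coding partner, and the 5 lincRNA-only windows highest and lowest in CpG. Members and lists were chosen with earlier results of these data known. The divergent coding set, the sense-strand TATA count, the RefSeq check, the count of words whose interval includes 0, the X chromosome difference and the lincRNA-only share of members, used in place of window counts, were added after the first results had been seen.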

Additional observations from a re-analysis of the deposited data

How the results depend on the processing

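Of 96 values recomputed under the alternatives, 73 stayed within 1.5 times (counts) or within the main interval (shares), and 23 did not. The lincRNA-only share of members was 39.2% with a distance of 500 bp, 36.2% with the gene's 5′ end alone, and 42.9 and 27.2% with coding distances of 500 bp and 2 kb, which change by construction which windows count as shared. With a distance of 500 bp the share of lincRNA genes with a window was 36.6%, the share of centres within 250 bp was 66.8% in lincRNA-only and 77.7% in shared windows, and 77.4% of shared windows were head to head. With 2 kb the gene share was 48.7%. These distances change the windows that are counted. In the central 200 bp, which hold fewer bases, AP-1, Ets, Sp and KLF, and TATA words were in 5.51, 5.93, 12.3 and 8.9% of lincRNA-only windows and in 2.96, 10.9, 25.1 and 3.36% of shared windows, and TATA in 8.6% of CpG-rich lincRNA-only and 1.93% of CpG-rich coding-only windows. Another window lay within 10 kb of 76.7% of lincRNA-only and 71.5% of shared windows, and within 100 kb of 100 and 98.8%. Without each chromosome in turn the gene share was 41.5 to 43.0% and the lincRNA-only share of members 30.7 to 32.6%. Keeping 1 window per overlapping group and leaving out chromosomes 7, 8, 9 and X moved none of the results they were run on beyond these limits. No lincRNA gene had 1 transcript of 1 exon, so that alternative changed nothing. No paired analysis was possible because all wells form 1 group.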
